A study of Mus musculus with 6 samples.

Results

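The genes described here are 6 effector genes of Th1 and cytotoxic T cells, Ifng, Tnf, Fasl, Il12rb1, Crtam and Nkg7. They were chosen by gene symbol, and all 6 have a row among the 4162 genes of the deposited table and passed the low-count filter. Expression was measured by RNA sequencing in CD4+ T cells from 3 UTX TCD mice and 3 WT mice. By the study's description, UTX TCD mice lack in T cells, and only there, UTX, an enzyme encoded by Kdm6a that demethylates histone H3; WT mice are wild type. Both groups are B6 mice, and their cells were handled alike: naive CD4+ T cells were isolated from spleen with magnetic beads and stimulated for 48 h with anti-CD3 coated on plates and dissolved anti-CD28, antibodies that trigger the T cell receptor complex and CD28. The sources used here do not give the Cre driver, the deleted exons or the age and sex of the mice. No cytokine or blocking antibody for Th1 polarization is named for any group.

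Th1 cells are the helper T cells that drive immunity to intracellular microbes. Interleukin-12 from antigen-presenting cells binds a receptor made of the IL-12Rβ1 and IL-12Rβ2 chains, which acts through the kinases TYK2 and JAK2 on the transcription factor STAT4. With T-bet, the product of Tbx21, STAT4 turns on Ifng. Some CD4+ T cells also take up a killer programme, with death ligands on the surface and lytic granules inside. UTX removes methyl groups from lysine 27 of histone H3, a mark that keeps genes silent, and the comparison asks which transcripts differ when T cells lack it.

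Column totals ran from 8363326 to 9497542 counts in UTX TCD libraries and from 8823939 to 10288306 counts in WT libraries. The table is a selection that followed the genotype difference: of 4118 genes tested, 20 had a log2 fold change within 0.1 of 0, against 1019 between -0.4 and -0.2. Levels are therefore given in CPM (counts scaled to the summed counts of the listed genes after TMM scaling), so they overstate the CPM of a complete library. Kdm6a had 188, 207 and 179 CPM in UTX TCD libraries, against 286, 281 and 281 CPM in WT libraries (log2 fold change -0.56 ± 0.09 SE, edgeR adjusted p = 0.00293). Transcript was lower but present, and with the deleted exons unknown these gene-level counts do not show whether the deletion was complete. The biological coefficient of variation was 22.1% among UTX TCD libraries and 8.01% among WT libraries, and replicate 2 of UTX TCD differed most from the other 2 UTX TCD libraries (chi-square per degree of freedom 82.9 to 88.2 against them, where the other UTX TCD pair gave 20.0). Values that move by over 1.5 times or lose a call without it are also given without it. Of the CD4 T cell marker list 1 of 10 genes, Cd28, has a row, so the labelled cell type cannot be checked further in this table. Among markers of other cells, Cd8b1 of CD8 T cells had 31.5 to 56.2 CPM in UTX TCD libraries and 11.6 to 14.5 CPM in WT libraries. The 4 gamma-delta T cell genes with a row summed to 12.9 to 16.5 CPM in UTX TCD libraries and 3.67 to 7.61 CPM in WT libraries. The 2 NK cell genes with a row, Klrd1 and Eomes, summed to 25.7 to 53.5 CPM in UTX TCD libraries and 23 to 59.4 CPM in WT libraries. Most of this sum was Eomes. Klrd1 alone had 2.77 to 4.33 CPM in UTX TCD libraries and 1.09 to 1.82 CPM in WT libraries. Other T cells can express both genes. None of these markers was at 0 in a library. Of the B cell, myeloid and dendritic cell marker lists 0 genes have a row. Outside these lists, 3 scarce genes known from myeloid cells, chosen after their values were seen, were lower in UTX TCD cells. Chosen so, they do not give the direction of myeloid genes in general, and genes of such cells that rose are not set beside them. Siglecf, a surface receptor of eosinophils and some macrophages, had 0 counts in each UTX TCD library, against 21, 24 and 16 counts in WT libraries. Cd5l, a gene of tissue macrophages, had 0, 1 and 4 counts in UTX TCD libraries, against 32, 49 and 23 counts in WT libraries. Cd86, a costimulatory ligand that activated T cells can also make, had 6, 5 and 5 counts in UTX TCD libraries, against 48, 68 and 75 counts in WT libraries. All 3 passed the test (edgeR adjusted p = 0.00316, 0.00403 and 0.00113). The part of other cells in the results below was not tested.

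All 6 effector genes fell in UTX TCD cells, by at least 2-fold, and in each of them every UTX TCD library lay below every WT library. Across the table, 27% of the 4118 tested genes were called lower, 41.1% were called higher, and 6.63% were called lower with a log2 fold change below -1. Groups did not overlap, with UTX TCD lower, in 44% of the tested genes. The median log2 fold change was -1.75 over the 6 genes and -0.15 over all tested genes. The listed genes were selected on the genotype difference and the 6 genes were chosen with earlier results known, so these counts are descriptions. Together the 6 genes held 0.0353% to 0.0451% of the counts in UTX TCD libraries and 0.112% to 0.126% in WT libraries. In RNA from bulk cells, fewer cells that express a gene and less of its RNA in each cell cannot be told apart.

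**Figure D1:**
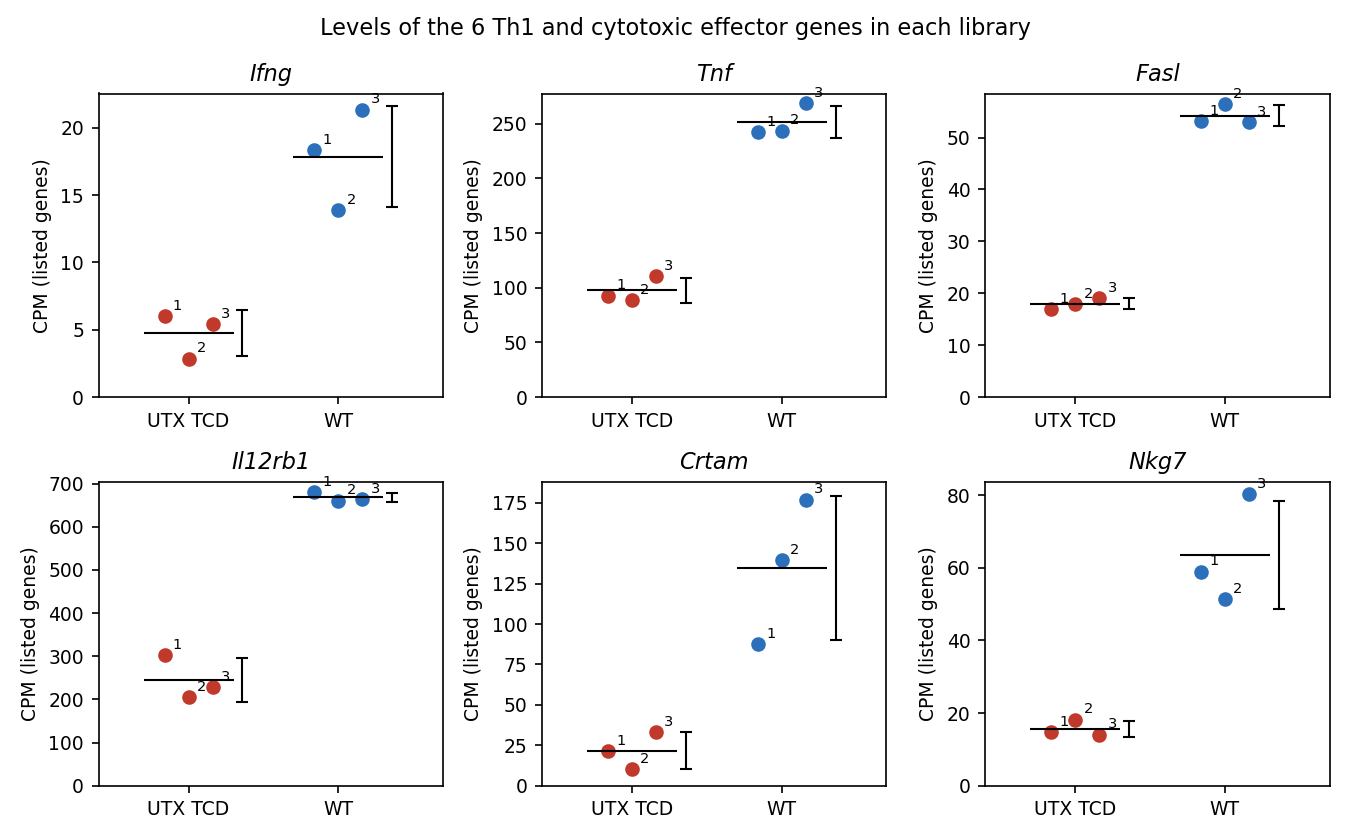
CPM of each of the 6 genes in each library, with UTX TCD on the left and WT on the right of each panel; points are libraries labelled by replicate number, horizontal lines are means and bars are SD (n = 3). All UTX TCD points lie below all WT points in every panel, and relative to the mean the UTX TCD points are closest together for Fasl and farthest apart for Crtam.

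Ifng encodes interferon-gamma, the signature Th1 cytokine, which activates macrophages. It lies on chromosome 10 from 118441046 to 118445892, plus strand (GRCm38). Ifng had 50, 27 and 52 counts in UTX TCD replicates 1, 2 and 3, against 185, 128 and 188 counts in WT replicates 1, 2 and 3. In CPM these were 6.03, 2.85 and 5.42 in UTX TCD libraries and 18.3, 13.9 and 21.3 in WT libraries, so Ifng was the scarcest of the 6 transcripts in both genotypes. It averaged 4.77 ± 1.68 CPM in UTX TCD cells and 17.9 ± 3.75 CPM in WT cells (SD, n = 3 each), a log2 fold change of -1.91 ± 0.33 SE (edgeR adjusted p = 0.00431). UTX TCD replicate 2 was the lowest library, and without it the log2 fold change was -1.65. A transcript model, Gm49751, lies inside Ifng on the same strand in the annotation used here, so that reads of the overlap could be lost if the authors' annotation held it.

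Tnf encodes tumour necrosis factor, a cytokine made as a membrane protein and shed by proteolysis, and it lies on chromosome 17 from 35199381 to 35202007, minus strand, in the major histocompatibility complex. Its CPM were 92.8, 88.8 and 111 in UTX TCD libraries, against 243, 244 and 269 in WT libraries. The highest UTX TCD value was less than the lowest WT value by more than the range of either group. Tnf averaged 97.5 ± 11.9 CPM in UTX TCD cells and 252 ± 14.7 CPM in WT cells (SD, n = 3 each), with a log2 fold change of -1.37 ± 0.11 SE (edgeR adjusted p = 0.000474). It changed least of the 6 genes on the log2 scale, but without UTX TCD replicate 3 Il12rb1 changed less (-1.40 against -1.47 for Tnf). Of its neighbours, Lta, which encodes lymphotoxin-alpha and starts 3344 bp away, fell too (154 ± 32.7 CPM in UTX TCD cells and 259 ± 38.6 CPM in WT cells, SD, n = 3 each; log2 fold change -0.75 ± 0.17 SE, edgeR adjusted p = 0.0101). Ltb, which encodes lymphotoxin-beta and starts 7568 bp away, had 206, 369 and 369 CPM in UTX TCD libraries and 182, 217 and 284 CPM in WT libraries, with overlapping groups (log2 fold change 0.47 ± 0.25 SE, edgeR adjusted p = 0.109). Ltb passed the threshold without UTX TCD replicate 1 (0.70, edgeR adjusted p = 0.0169) and with the replicate block (0.44, edgeR adjusted p = 0.0318). Ltb was chosen for naming after its values were seen. The call of Lta was lost with the wider adjustment defined below (edgeR adjusted p = 0.054).

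Ifng and Tnf share a feature of their transcripts that is sparser per kilobase, or absent, in the other 4 genes. Their 3′ untranslated regions carry AU-rich elements, repeats of the pentamer ATTTA that are bound by proteins of the tristetraprolin family, which speed the decay of cytokine mRNA. The Ifng 3′ untranslated region of 631 bases holds 6 pentamers, and that of Tnf holds 8 in 764 bases. Among the 17296 protein-coding genes with a 3′ untranslated region of 200 bases or more, 0.717% reach the density of Ifng and 0.509% that of Tnf. By number alone the feature is common: of 21020 genes, 14.9% have as many pentamers as Ifng and 9.07% as many as Tnf. Fasl has 1 pentamer in 887 bases, Crtam has 7, more than Ifng, but in 3822 bases, and Il12rb1 and Nkg7 have 0. The 30 bases richest in the pentamer are shown because they differ between the cytokine genes, with each ATTTA in capitals; they lie at bases 69 to 98 after the stop codon in Ifng and at bases 437 to 466 in Tnf, on the gene's strand (transcripts of GENCODE M21, chosen for the longest coding sequence).
Ifng: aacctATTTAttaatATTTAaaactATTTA
Tnf: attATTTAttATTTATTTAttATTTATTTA
The Tnf stretch holds 5 pentamers, some of which share a base, and the Ifng stretch holds 3 that stand apart. The log2 fold changes of the other 4 genes run from -2.64 to -1.45. That of Ifng, -1.91, lies inside this range, and that of Tnf, -1.37 ± 0.11 SE, lies just outside it as the smallest fall of the 6 genes. Il12rb1, at -1.45 ± 0.14 SE, is within 1 SE of it. Without UTX TCD replicate 3 the order turned, with Tnf at -1.47 and Il12rb1 at -1.40, so Tnf is not set apart from the other genes. A match to these letters is a description and not a test of decay.

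Fasl encodes Fas ligand, the death ligand that kills cells bearing Fas, and it lies on chromosome 1 from 161780689 to 161788495, minus strand. Its CPM were 17.0, 18.0 and 19.1 in UTX TCD libraries, against 53.1, 56.5 and 53.0 in WT libraries. The groups did not overlap, and of the 6 genes Fasl varied least within UTX TCD. The coefficient of variation was 5.75% in UTX TCD cells and 3.68% in WT cells, below the 7.79% and 4.44% that counting error alone gives for counts of this size. Fasl averaged 18.0 ± 1.04 CPM in UTX TCD cells and 54.2 ± 2.00 CPM in WT cells (SD, n = 3 each), with a log2 fold change of -1.59 ± 0.13 SE (edgeR adjusted p = 0.000479). UTX TCD replicate 2 lay between the other libraries of its genotype for this gene.

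Il12rb1 encodes IL-12Rβ1, the receptor chain shared by the receptors for interleukin-12 and interleukin-23, and it lies on chromosome 8 from 70808449 to 70821424, plus strand. Its CPM were 303, 206 and 228 in UTX TCD libraries, against 680, 661 and 664 in WT libraries. UTX TCD replicate 1 was the highest library of its genotype and still lay below every WT library. WT libraries were tighter (coefficient of variation 1.5%) than UTX TCD libraries (20.6%). The mean was 245 ± 50.7 CPM in UTX TCD cells and 668 ± 10.01 CPM in WT cells (SD, n = 3 each), with a log2 fold change of -1.45 ± 0.14 SE (edgeR adjusted p = 0.000764).

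Crtam encodes an immunoglobulin-family surface receptor that is induced early in T cell activation and marks CD4+ T cells able to become cytotoxic. It lies on chromosome 9 from 40969691 to 41004628, minus strand. Its CPM were 21.3, 10.4 and 33.1 in UTX TCD libraries, against 87.7, 139 and 177 in WT libraries. Crtam had the largest fall of the 6 genes and also the widest spread in both genotypes, yet the highest UTX TCD library stayed below the lowest WT library. It averaged 21.6 ± 11.4 CPM in UTX TCD cells and 135 ± 44.8 CPM in WT cells (SD, n = 3 each), a log2 fold change of -2.64 ± 0.42 SE (edgeR adjusted p = 0.00335). The value was -2.31 without UTX TCD replicate 2, the lowest library, and -3.09 without UTX TCD replicate 3, the highest of its genotype. The coefficient of variation was 52.7% in UTX TCD cells and 33.3% in WT cells, where counting error gives 7.11% and 2.84%.

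Nkg7 encodes a membrane protein of lytic granules that takes part in their release, and it lies on chromosome 7 from 43437073 to 43438249, plus strand. Its CPM were 14.8, 18.2 and 14.1 in UTX TCD libraries, against 58.9, 51.4 and 80.3 in WT libraries. WT replicate 3 was the highest library, and UTX TCD replicate 2, low for 4 of the 6 genes, was here the highest of its genotype. Nkg7 averaged 15.7 ± 2.19 CPM in UTX TCD cells and 63.5 ± 14.96 CPM in WT cells (SD, n = 3 each), a log2 fold change of -2.02 ± 0.21 SE (edgeR adjusted p = 0.000807).

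The fall of the 6 genes kept its direction and its side of the threshold in each of 15 alternatives, which changed the scaling, the filter, the test, the number of tests or the libraries. The 90 resulting log2 fold changes ran from -3.09 for Crtam to -1.29 for Tnf. When each of 21951 annotated protein-coding genes was counted as a test, called the wider adjustment here, the edgeR adjusted p ran from 0.00253 for Tnf to 0.023 for Ifng.

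**Figure D2:**
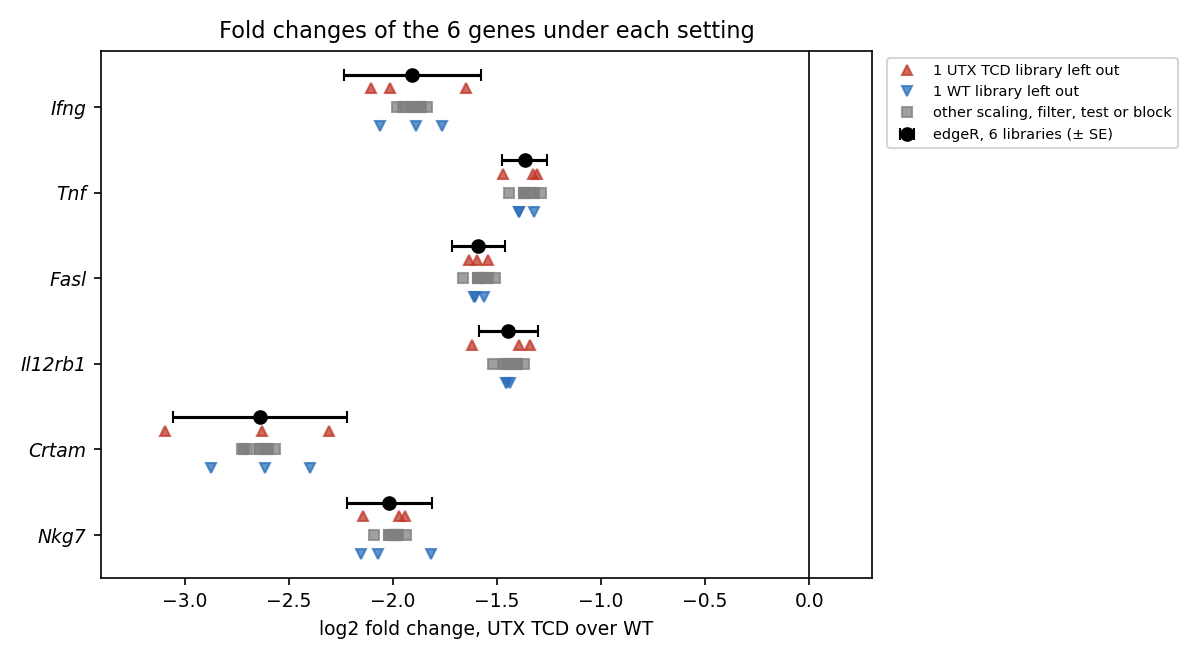
Log2 fold change, UTX TCD over WT, of each of the 6 genes (horizontal axis); black points are the edgeR fit on 6 libraries with its SE, triangles are fits with 1 library left out, and grey squares are the other settings. Every value lies below 0, between -3.09 and -1.29, and Crtam moves most with the library left out.

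Per kilobase of exon, the 6 genes kept 1 order of levels in both genotypes, namely Il12rb1, Tnf, Nkg7, Fasl, Crtam and Ifng. On this scale Il12rb1 had 59.8 ± 12.3 CPM per kb in UTX TCD cells and 163 ± 2.44 CPM per kb in WT cells. Tnf had 59.5 ± 7.24 CPM per kb in UTX TCD cells and 153 ± 8.94 CPM per kb in WT cells (SD, n = 3 each). These neighbours in the order overlapped in both genotypes. Nkg7 had 17.2 ± 2.40 CPM per kb in UTX TCD cells and 69.5 ± 16.4 CPM per kb in WT cells, and Fasl had 9.30 ± 0.54 CPM per kb in UTX TCD cells and 28.0 ± 1.03 CPM per kb in WT cells (SD, n = 3 each). Each stood apart from its neighbours above and below in UTX TCD libraries, while in WT libraries Fasl lay inside the range of Crtam. Crtam had 2.02 to 6.46 CPM per kb in UTX TCD libraries and 17.1 to 34.5 CPM per kb in WT libraries. Ifng had 2.20 to 4.65 CPM per kb in UTX TCD libraries and 10.7 to 16.5 CPM per kb in WT libraries, so this last pair overlapped in UTX TCD and just failed to overlap in WT.

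The size of the fall was also compared between genes within libraries. For each of the 15 pairs of the 6 genes, the log2 ratio of the 2 levels was taken in every library, and in 13 pairs the genotypes overlapped. The log2 ratio of Tnf to Crtam was 1.74 to 3.07 in UTX TCD libraries and 0.60 to 1.47 in WT libraries. That of Tnf to Nkg7 was 2.27 to 2.96 in UTX TCD libraries and 1.74 to 2.24 in WT libraries. In both pairs every UTX TCD library had a higher ratio than every WT library. These ratios were not tested.

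Promoter windows of 4 of the 6 genes are in the RefSeq table used here (GRCm38.p6, 250 bases before to 50 bases after the start). They are shown as a description of genes that lie on different chromosomes. The genes were chosen with earlier results known, so their shared fall follows in part from the choice. Whether they share control was not tested. Capitals mark the NFAT core GGAAA, read on either strand (TTTCC on the other), and the T-box core GGTGTGA; NFAT is the calcium-activated factor of T cell stimulation, and T-bet is a T-box factor. The windows are Ifng chr10:118440796-118441095 plus strand, Tnf chr17:35201958-35202257 minus strand, Fasl chr1:161788446-161788745 minus strand and Nkg7 chr7:43436888-43437187 plus strand, each printed on the gene's strand.
Ifng: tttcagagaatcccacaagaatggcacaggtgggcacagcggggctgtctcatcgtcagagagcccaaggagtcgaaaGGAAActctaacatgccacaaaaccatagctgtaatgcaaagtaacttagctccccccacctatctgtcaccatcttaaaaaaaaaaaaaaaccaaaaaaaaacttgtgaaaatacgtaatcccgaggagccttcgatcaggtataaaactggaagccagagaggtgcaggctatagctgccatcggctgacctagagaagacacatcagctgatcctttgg
Tnf: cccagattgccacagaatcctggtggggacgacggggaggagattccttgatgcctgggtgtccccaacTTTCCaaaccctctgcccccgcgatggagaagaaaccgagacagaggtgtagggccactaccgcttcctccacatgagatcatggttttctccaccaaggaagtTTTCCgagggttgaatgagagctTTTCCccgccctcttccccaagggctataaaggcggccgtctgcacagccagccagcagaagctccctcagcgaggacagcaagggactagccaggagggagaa
Fasl: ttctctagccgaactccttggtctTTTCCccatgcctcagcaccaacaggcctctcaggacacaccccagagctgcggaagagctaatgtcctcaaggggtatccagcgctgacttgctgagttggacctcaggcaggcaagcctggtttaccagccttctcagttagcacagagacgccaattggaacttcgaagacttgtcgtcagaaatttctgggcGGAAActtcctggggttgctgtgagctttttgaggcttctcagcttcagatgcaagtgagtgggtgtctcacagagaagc
Nkg7: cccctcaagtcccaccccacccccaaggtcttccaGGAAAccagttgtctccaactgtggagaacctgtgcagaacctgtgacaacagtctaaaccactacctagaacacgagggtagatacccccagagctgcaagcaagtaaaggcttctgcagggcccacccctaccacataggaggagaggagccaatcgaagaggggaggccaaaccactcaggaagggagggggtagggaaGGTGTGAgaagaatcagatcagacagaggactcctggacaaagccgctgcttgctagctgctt
The NFAT core occurs in all 4 windows, 3 times in Tnf, 2 times in Fasl and 1 time each in Ifng and Nkg7. It is common, as 61.3% of 32851 windows hold it and 26.7% hold 2 or more. The T-box core occurs in Nkg7 alone, with its first base at position -13 from the start, and in 3.98% of all windows. Of 4 further motifs searched on both strands, the STAT core TTCNNNGAA, in 8.3% of all windows, was found in Ifng and in Nkg7, where it overlaps the NFAT core, and the RUNX core TGTGGT, in 16.8%, was found in Nkg7. The AP-1 core TGANTCA, in 7.81%, and the NF-kB consensus, in 4.51%, were found in none of the 4. The ratio of observed to expected CpG was 0.44 in Ifng, 0.44 in Tnf, 0.33 in Fasl and 0.13 in Nkg7, against a median of 0.384 over all windows. Il12rb1 and Crtam had no window in the table.

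**Figure D3:**
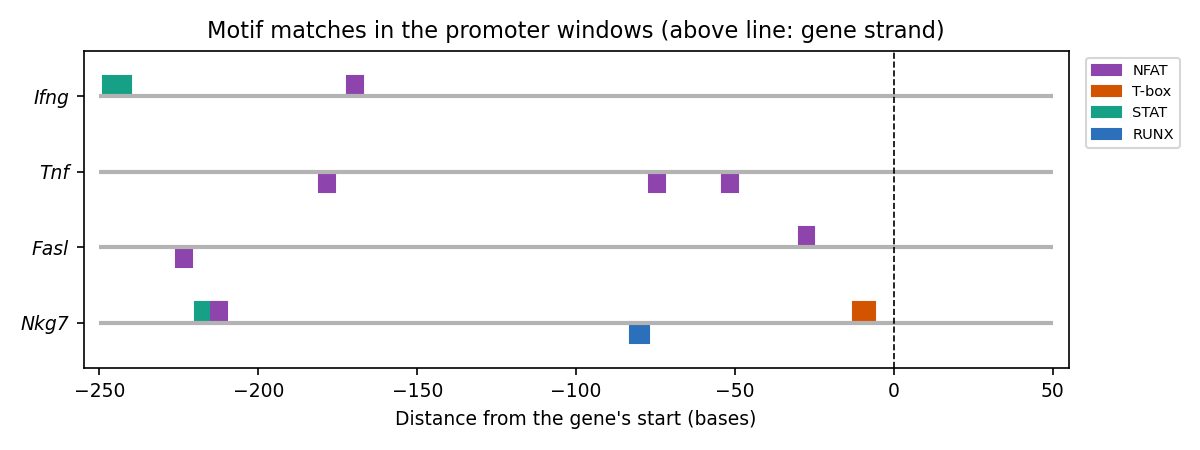
Motif matches in the promoter windows of 4 genes, by distance from the gene's start in bases; boxes above a line are matches on the gene's strand and boxes below it on the other strand. The NFAT core is the motif found in all 4 windows, and the T-box core begins at position -13 of Nkg7.

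Of 18 direct partners of the 6 genes named for description, 14 have a row and were tested. Of these, 4 were lower, 4 were higher and 6 did not pass. Over all tested genes 27% were called lower and 41.1% higher. The counts of partners, lists and neighbours given here and below are to be read against these shares. The partner chain Il12rb2 was not called lower. It had 127, 237 and 57.1 CPM in UTX TCD libraries and 94.1, 47.3 and 82.5 CPM in WT libraries, with overlapping groups (log2 fold change 0.91 ± 0.47 SE, edgeR adjusted p = 0.105). It was 0.29 without UTX TCD replicate 2 and passed without UTX TCD replicate 3 (1.28, edgeR adjusted p = 0.0224). Jak2, its kinase, had a log2 fold change of -0.27 ± 0.19 SE (edgeR adjusted p = 0.209). Jak2 was -0.44 without UTX TCD replicate 2 and passed in none of the 15 alternatives. Stat4 was lower at -0.90 ± 0.30 SE (edgeR adjusted p = 0.0313). Stat4 had 81.5, 176 and 79.5 CPM in UTX TCD libraries and 197, 193 and 239 CPM in WT libraries, and replicate 2 of UTX TCD came close to the lowest WT library. Its call was lost without UTX TCD replicate 1 (-0.70) or 3 (-0.70), without WT replicate 1 (-0.94), 2 (-0.96) or 3 (-0.80), with upper-quartile scaling (-0.81) and with the wider adjustment, and it was -1.39 without UTX TCD replicate 2.

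In the IL-12 receptor signalling list, 4 of 11 tested genes other than Il12rb1 were higher, 4 were lower and 3 did not pass (median log2 fold change -0.27). The list also holds genes of the interleukin-18 receptor and of interleukin-6 family receptors. Of its 4 lower genes, Stat4 alone belongs to the chain from the interleukin-12 receptor. The lowest log2 fold change of the list was that of Il18rap, a chain of the receptor for interleukin-18, the cytokine that acts with interleukin-12 to induce Ifng. Il18rap had 6.39, 6.13 and 8.33 CPM in UTX TCD libraries and 23.5, 25.7 and 30.1 CPM in WT libraries (log2 fold change -1.92 ± 0.21 SE, edgeR adjusted p = 0.00113). The other chain, Il18r1, named after its values were seen, had 3.28 to 7.40 CPM in UTX TCD libraries and 6.74 to 19.9 CPM in WT libraries, which overlapped (-1.42 ± 0.46 SE, edgeR adjusted p = 0.0282), and its call was lost without UTX TCD replicate 1 (-1.36) or 2 (-1.19), without WT replicate 2 (-1.38) or 3 (-1.06) and with the wider adjustment. Myd88, the adaptor of that receptor, was lower at -0.38 ± 0.10 SE, and lost its call without WT replicate 1 (-0.38) or 2 (-0.40) and with the wider adjustment. Il6st, the gp130 chain of interleukin-6 family receptors, rose by 0.83 ± 0.09 SE, and the stress gene Gadd45g rose by 1.16 ± 0.17 SE. The 4 lower genes became 2 without UTX TCD replicate 1, WT replicate 1 or WT replicate 3 and 1 without WT replicate 2 or with the wider adjustment. The 4 higher became 2 without WT replicate 1 or 2 and with the wider adjustment.

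**Figure D4:**
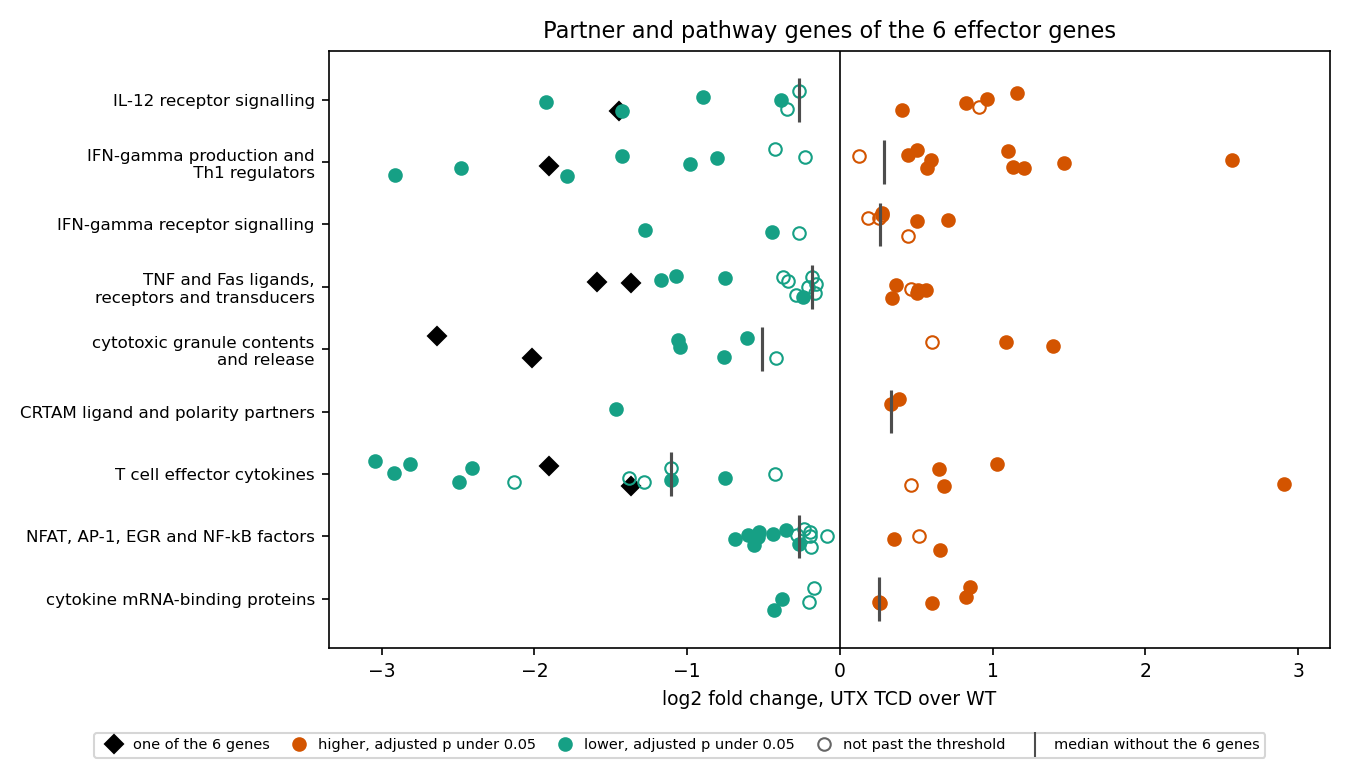
Log2 fold change, UTX TCD over WT, of every tested gene of 9 lists of partner and pathway genes (1 point a gene, jittered vertically); diamonds are the 6 effector genes, filled circles passed an edgeR adjusted p under 0.05, open circles did not, and vertical bars are medians without the 6 genes. The 6 genes lie between -2.64 and -1.37, while every list holds called genes on both sides of 0.

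Among genes that control Ifng transcription and the Th1 fate, calls went both ways, as they did over all tested genes (27% lower, 41.1% higher). Of 18 tested genes other than Ifng, 9 were higher, 6 were lower and 3 did not pass (median 0.29). Tbx21, which encodes T-bet, had 278, 158 and 168 CPM in UTX TCD libraries and 459, 334 and 398 CPM in WT libraries (log2 fold change -0.98 ± 0.23 SE, edgeR adjusted p = 0.0105, and 0.0562 with the wider adjustment). Runx3, the partner of T-bet at Ifng, was instead higher at 0.60 ± 0.23 SE (edgeR adjusted p = 0.0492), but was 0.27 without UTX TCD replicate 2. Its call was also lost without UTX TCD replicate 1 (0.69), without WT replicate 1 (0.63), 2 (0.50) or 3 (0.66), with the replicate block (0.55), gap-centred scaling (0.52), limma-voom (0.55) and the wider adjustment. Eomes, a T-box factor of cytotoxic cells, had 22.9, 49.2 and 44.0 CPM in UTX TCD libraries and 21.9, 27.01 and 57.6 CPM in WT libraries, with no separation (0.13 ± 0.41 SE, edgeR adjusted p = 0.762). Its sign turned without UTX TCD replicate 2 (-0.09) and without WT replicate 1 (-0.13) or 2 (-0.04). Zbtb32, a zinc finger repressor, had 56.6 ± 7.52 CPM in UTX TCD cells and 195 ± 27.1 CPM in WT cells (SD, n = 3 each; -1.78 ± 0.14 SE, edgeR adjusted p = 0.000474). Ets1, Ikzf3 (Aiolos) and Ikzf2 (Helios), transcription factors of lymphocytes, rose by 1.20 ± 0.14, 1.13 ± 0.13 and 2.57 ± 0.44 SE on the log2 scale. The higher genes of this list became 5 with the wider adjustment.

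Neither chain of the interferon-gamma receptor was called lower. Ifngr1, the ligand-binding chain, had 74.8, 125 and 99.1 CPM in UTX TCD libraries and 77.4, 69.5 and 72.3 CPM in WT libraries (log2 fold change 0.45 ± 0.18 SE, edgeR adjusted p = 0.0523). It was 0.24 without UTX TCD replicate 2, and it passed without UTX TCD replicate 1 (0.62), with RLE scaling (0.50), with upper-quartile scaling (0.53) and with DESeq2 (0.49). Ifngr2, the signalling chain, had 84.1, 129 and 62.4 CPM in UTX TCD libraries and 67.8, 52.8 and 48.1 CPM in WT libraries, which overlapped (0.71 ± 0.26 SE, edgeR adjusted p = 0.0431). Its call was lost without UTX TCD replicate 1 (0.78) or 2 (0.37), without WT replicate 1 (0.86), 2 (0.66) or 3 (0.60), with gap-centred scaling (0.63), with limma-voom (0.65) and with the wider adjustment. Of 10 tested genes of interferon-gamma receptor signalling, 3 were higher, 2 were lower and 5 did not pass (median 0.26). Irf8, an interferon regulatory factor, fell by 1.28 ± 0.22 SE on the log2 scale (edgeR adjusted p = 0.0043). Jak1 was higher at 0.27 ± 0.07 SE and Cd274, which encodes PD-L1, lower at -0.44 ± 0.13 SE, and both lost the call without WT replicate 1 (0.26 and -0.42) or 2 (0.27 and -0.42) and with the wider adjustment. Jak1 also lost it without WT replicate 3 (0.28) and Cd274 without UTX TCD replicate 3 (-0.37). The 3 higher genes became 1 without any 1 WT library or with the wider adjustment, and 5 with upper-quartile scaling or DESeq2. The 2 lower became 1 without WT replicate 1 or 2, without UTX TCD replicate 3 and with the wider adjustment.

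Around Tnf and Fasl, a TNF receptor and a TNF family ligand fell. Of 17 tested genes other than Tnf and Fasl, 5 were higher, 4 were lower and 8 did not pass (median -0.18). Tnfrsf1b, which encodes 1 of the TNF receptors, had 119, 102 and 127 CPM in UTX TCD libraries and 237, 249 and 246 CPM in WT libraries (log2 fold change -1.07 ± 0.10 SE, edgeR adjusted p = 0.000663). Tnfsf14, the TNF family ligand LIGHT, had 52.3 ± 9.65 CPM in UTX TCD cells and 118 ± 10.5 CPM in WT cells (SD, n = 3 each; -1.17 ± 0.15 SE, edgeR adjusted p = 0.00193). Adam17, the protease that sheds TNF, had 251 to 271 CPM in UTX TCD libraries and 279 to 307 CPM in WT libraries, with no overlap but without passing (-0.15 ± 0.08 SE, edgeR adjusted p = 0.106), but it passed with gap-centred scaling (-0.23, edgeR adjusted p = 0.0334). The 5 higher genes became 2 without WT replicate 1 and 1 without WT replicate 2 or with the wider adjustment. The 4 lower became 8 with gap-centred scaling and 2 with the wider adjustment. Fas and Tnfrsf1a were not analysed here.

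Genes listed for granule contents and release, which include surface receptors such as Slamf7 and Klrd1, were called in both directions. Gzmb, the killer protease granzyme B, was higher in UTX TCD cells, with 159, 302 and 146 CPM in UTX TCD libraries and 72.4, 75.8 and 138 CPM in WT libraries (log2 fold change 1.09 ± 0.34 SE, edgeR adjusted p = 0.0269). Its call was lost without UTX TCD replicate 2 (0.67), without WT replicate 1 (0.92) or 2 (0.94) and with the wider adjustment. Prf1, which encodes the pore-former perforin, had 9.76, 9.30 and 10.3 CPM in UTX TCD libraries and 5.65, 5.21 and 8.51 CPM in WT libraries, with no overlap but without passing (0.60 ± 0.26 SE, edgeR adjusted p = 0.0667). It passed without WT replicate 3 (0.85) and with limma-voom (0.64). Of 8 tested genes of this list other than Nkg7 and Crtam, 2 were higher, 4 were lower and 2 did not pass (median -0.51). The 2 higher genes were Gzmb and Klrd1, and of these only Gzmb encodes a granule protein. The lower genes included Cst7, which encodes the protease inhibitor cystatin F, at 80.9 ± 12.3 CPM in UTX TCD cells and 167 ± 6.17 CPM in WT cells (SD, n = 3 each; -1.05 ± 0.12 SE, edgeR adjusted p = 0.00134). Slamf7, a receptor of cytotoxic lymphocytes, fell by 1.06 ± 0.15 SE, and Lyst, which governs lysosome traffic, fell by 0.76 ± 0.09 SE on the log2 scale. Klrd1, the CD94 chain of NK receptors, was higher at 1.40 ± 0.36 SE, with 2.77 to 4.33 CPM in UTX TCD libraries and 1.09 to 1.82 CPM in WT libraries, and lost its call without WT replicate 1 (1.24) or 2 (1.34) and with the wider adjustment. The 2 higher genes became 0 without WT replicate 1 or 2 and with the wider adjustment, and 1 without UTX TCD replicate 2.

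Cadm1, the ligand of the CRTAM protein, was low in both genotypes. It had 4.94, 3.38 and 2.50 CPM in UTX TCD libraries and 9.41, 14.9 and 5.56 CPM in WT libraries (log2 fold change -1.47 ± 0.42 SE, edgeR adjusted p = 0.021). Its call was lost without UTX TCD replicate 3 (-1.26), without WT replicate 1 (-1.51) or 2 (-1.06) and with the wider adjustment. The polarity scaffold genes Dlg4 and Llgl1 were higher, at 0.39 ± 0.09 and 0.33 ± 0.08 SE, and both lost the call without WT replicate 1 (0.38 and 0.30) or 2 (0.38 and 0.32) and with the wider adjustment. Of the 10 genes listed as CRTAM ligand and polarity partners, only these 3 have a row.

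Of 17 tested effector cytokine genes other than Ifng and Tnf, 4 were higher, 7 were lower and 6 did not pass (median log2 fold change -1.11). Il2, the T cell growth factor, had 137, 90.1 and 69.8 CPM in UTX TCD libraries and 692, 567 and 412 CPM in WT libraries. The chemokine gene Ccl3 had 51.0, 26.1 and 52.9 CPM in UTX TCD libraries and 299, 359 and 413 CPM in WT libraries. Ccl4, its neighbour in function, had 43.0, 22.5 and 45.2 CPM in UTX TCD libraries and 182, 199 and 207 CPM in WT libraries. In all 3 genes the groups did not overlap, with log2 fold changes of -2.50 ± 0.28, -3.04 ± 0.27 and -2.41 ± 0.24 SE (edgeR adjusted p = 0.00116, 0.000561 and 0.000769). Il16 went the other way, with a rise of 1.03 ± 0.16 SE on the log2 scale (edgeR adjusted p = 0.00298). The 4 higher genes became 1 without WT replicate 2 and with the wider adjustment, and the 7 lower became 3 with the wider adjustment.

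Transcription factors that T cell receptor signals switch on were called lower more often than higher. In the list of NFAT, AP-1, EGR and NF-kB factors 8 of 17 tested genes were lower, 2 were higher and 7 did not pass (median -0.27). The shares over all tested genes were 27% lower and 41.1% higher. Jund, a member of AP-1, had 316 ± 15.2 CPM in UTX TCD cells and 466 ± 23.5 CPM in WT cells (SD, n = 3 each; -0.56 ± 0.08 SE, edgeR adjusted p = 0.0027). Nr4a2 fell by 0.69 ± 0.12 SE and Nfatc2, the NFAT1 gene, by 0.43 ± 0.09 SE on the log2 scale. The 6 effector genes had log2 fold changes of -1.37 and below. Nr4a3, an orphan receptor induced by T cell receptor signals, was higher at 0.65 ± 0.19 SE and lost its call without WT replicate 1 (0.68) or 2 (0.57) and with the wider adjustment. The 8 lower genes became 4 without UTX TCD replicate 3 or WT replicate 3 and 3 without WT replicate 1 or 2 and with the wider adjustment. The 2 higher became 1 without UTX TCD replicate 1 or WT replicate 3 and with gap-centred scaling, and 0 without WT replicate 1 or 2 and with the wider adjustment.

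Genes for proteins that bind cytokine mRNA, including the AU-rich elements shown above, had 5 higher and 2 lower of 9 tested, with 2 that did not pass (median 0.26). Zfp36, which encodes tristetraprolin and was named after its values were seen, had 181, 190 and 202 CPM in UTX TCD libraries and 160, 151 and 169 CPM in WT libraries. Its log2 fold change was 0.26 ± 0.09 SE (edgeR adjusted p = 0.0321), and the call was lost without UTX TCD replicate 3 (0.21), without WT replicate 1 (0.25), 2 (0.21) or 3 (0.29), with gap-centred scaling (0.18) and with the wider adjustment. Tia1, a repressor of Tnf translation, rose by 0.61 ± 0.09 SE (edgeR adjusted p = 0.00267), and Arid5b rose by 0.85 ± 0.16 SE (edgeR adjusted p = 0.00616). Arid5a, which stabilizes some cytokine mRNAs, was higher at 0.83 ± 0.25 SE and was 0.43 without UTX TCD replicate 2, and its call was lost without WT replicate 1 (0.84), 2 (0.79) or 3 (0.85) and with the wider adjustment. Gapdh, whose protein can bind Ifng mRNA, was lower at -0.43 ± 0.13 SE, but the gene has processed pseudogenes, and how the counting treated reads that match both is not known, so its value is uncertain. Its call was lost without WT replicate 1 (-0.44), 2 (-0.48) or 3 (-0.40) and with the wider adjustment. The 5 higher genes became 2 without any 1 WT library and with the wider adjustment, and 3 with gap-centred scaling. The 2 lower became 0 without any 1 WT library and with the wider adjustment, and 1 without UTX TCD replicate 3.

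Genes with the most similar profile over the 6 libraries were sought among 3882 genes (3877 for the mean of the 6 genes) with an average log2 CPM of at least 2, by the root mean square difference of log2 CPM after each gene was centred on its mean. The mean was over both genotypes, so a small difference rests in large part on a like fold change between them. Plek, for example, had a log2 fold change of -1.57 beside -1.59 for Fasl. Whether such genes share control was not tested. Nearest to Tnf was Chst15 (0.11), a sulfotransferase gene, and then Fasl (0.142). Nearest to Fasl were Plek (0.115), which encodes pleckstrin, and Fut7 (0.12), a fucosyltransferase of selectin ligands. Nearest to Il12rb1 were Mgat5 (0.119), a glycosyltransferase, and Nrp1 (0.122), the receptor neuropilin-1. Crtam was nearest to Cxcr3 (0.284), the chemokine receptor of Th1 cells, and to Ccl3 (0.321). Within each genotype the libraries stood in the same order for Cxcr3 and Ccl3 as for Crtam. That order follows in part from the choice, as both genes were picked for likeness to Crtam in these same libraries. Cxcr3 had 1.21, 0.317 and 2.71 CPM in UTX TCD libraries and 7.53, 10.4 and 14.4 CPM in WT libraries. Its UTX TCD values rest on 10, 3 and 26 counts. Nkg7 was nearest to Pik3ap1 (0.185), a signalling adaptor, and Tnfrsf8 (0.202), which encodes CD30. Ifng was nearest to Ddn (0.215) and Rgs16 (0.234), a regulator of G protein signalling. Nearest to the mean of the 6 genes were Slco4a1 (0.1), Il18rap (0.114), Itga9 (0.117), Rgcc (0.157) and Btbd11 (0.173).

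Genes near the 6 loci were looked at after the values were seen, within 250000 bp of each start. Their counts stand beside shares of 27% lower and 41.1% higher over all tested genes. Ifng has 10 protein-coding neighbours there and Fasl has 3, and 0 of them have a row. Tnf has 39, of which 8 have a row, and of these 4 were higher, 2 were lower and 2 did not pass. Besides Lta and Ltb these include H2-Q7, a major histocompatibility class I gene 237148 bp away, at 199 ± 59.4 CPM in UTX TCD cells and 87.9 ± 28.3 CPM in WT cells (SD, n = 3 each; log2 fold change 1.18 ± 0.27 SE, edgeR adjusted p = 0.0099, and 0.0528 with the wider adjustment). H2-Q genes are near copies of each other, so its value is uncertain. Crtam has 4, of which 1 has a row: Ubash3b, a phosphatase that limits T cell receptor signalling, 157069 bp away, had 162, 118 and 219 CPM in UTX TCD libraries and 313, 392.3 and 388 CPM in WT libraries (log2 fold change -1.13 ± 0.21 SE, edgeR adjusted p = 0.00568). Nkg7 has 17, of which 3 have a row, and 2 of these were lower and 1 higher. The lower ones are Siglecf, 85732 bp away, with the counts given above, and Etfb. The higher one is Zfp658, a zinc finger gene 125183 bp away, at 0.64 ± 0.19 SE (edgeR adjusted p = 0.0216), which lost its call without UTX TCD replicate 3 (0.59), without WT replicate 1 (0.65), 2 (0.69) or 3 (0.56) and with the wider adjustment. The nearest, Etfb of mitochondrial electron transfer, 7010 bp away, was lower at -0.48 ± 0.15 SE (edgeR adjusted p = 0.0269), and lost its call without WT replicate 1 (-0.46), 2 (-0.52) or 3 (-0.45) and with the wider adjustment. Il12rb1 has 20 such neighbours, of which 6 have a row, and of these 3 were higher, 1 was lower and 2 did not pass. The nearest called gene, Pik3r2, 31736 bp away, was higher at 0.55 ± 0.10 SE (edgeR adjusted p = 0.00545).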

How the data were processed

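RNA sequencing measured gene expression in stimulated CD4+ T cells of 3 UTX TCD and 3 WT mice. The deposited values are raw read counts per gene with no normalization. FastQC, HISAT2, HTSeq and the build mm10 are named, per the submitters' processing notes; the sources used here do not give versions, annotation, strand setting or the rule that selected the 4162 listed genes. Columns were tied to samples by genotype and number in the titles. Column totals of 8363326 to 10288306 counts are sums over listed genes and not library depths. Because the listed genes differ between genotypes, the scaling rests on genes that differ, and adjustment over them counts too few tests.

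Genotypes were compared over the whole table with edgeR 4.0.16 (quasi-likelihood test, R 4.3.3), in a model of genotype alone, with a minimum count of 10 and total of 15 (44 genes left out), TMM scaling and Benjamini-Hochberg adjustment over 4118 genes. A gene was called where its adjusted p lay under 0.05. The SE is the absolute log2 fold change over the square root of F. Profiles used log2 CPM with a prior count of 2. DESeq2 1.42.0, limma-voom (limma 3.58.1), other scalings, no filter, a replicate block, libraries left out and a wider adjustment over 21951 genes were alternatives. Gap-centred scaling puts the emptiest point of the fold changes near 0, at 0.075 (log2), on 0. The fit was tested on simulated counts. Positions, exon lengths and transcripts come from GENCODE M21 (GRCm38), promoters from RefSeq. The 6 genes and the 9 pathway lists were chosen with earlier results of these data known. Named besides the 6 are Kdm6a, 18 direct partners, up to 4 called genes of each list by p, the nearest profiles and cell type markers; a few chosen after their values were seen are marked so. Some genes that this rule names are not reported here.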

Additional observations from a re-analysis of the deposited data

How the results depend on the processing

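For the 6 effector genes, all 90 log2 fold changes from 15 alternatives stayed negative and past an adjusted p of 0.05. With 1 library left out they ran from -2.10 to -1.65 for Ifng and from -3.09 to -2.31 for Crtam. Same-numbered libraries of the 2 genotypes had residual correlations of 0.279, -0.281 and 0.18. These values are not independent, because each genotype was centred on its own mean over few libraries. They cannot decide whether the numbers pair the mice, and the labels do not say. With the replicate block 1026 genes were called lower and 1607 higher, against 1111 and 1692 without it. Counts of calls moved more. Genes called lower numbered 725 with upper-quartile scaling, 1832 with gap-centred scaling, 296 with the wider adjustment and 351 to 1458 with 1 library left out; genes called higher numbered 630 with the wider adjustment and 730 to 1824 with 1 library left out. With the wider adjustment the lists had, lower and higher, 1 and 2 (IL-12 receptor), 1 and 1 (interferon-gamma receptor), 2 and 1 (TNF and Fas), 0 and 0 (CRTAM), 3 and 1 (cytokines), 3 and 0 (NFAT and others) and 0 and 2 (mRNA-binding), with 5 higher Th1 regulators and 0 higher granule genes. Upper-quartile scaling and DESeq2 each gave 5 higher genes of interferon-gamma receptor signalling; gap-centred scaling gave 8 lower TNF and Fas genes, 1 higher NFAT-list gene and 3 higher mRNA-binding genes. With 1 library left out, the counts ran as follows: IL-12 receptor 1 to 4 lower and 2 to 5 higher, interferon-gamma receptor 1 to 2 lower and 1 to 4 higher, TNF and Fas 1 to 6 higher, granule 0 to 3 higher, CRTAM 0 to 1 lower and 0 to 2 higher, cytokines 1 to 5 higher, NFAT and others 3 to 12 lower and 0 to 3 higher, and mRNA-binding 0 to 2 lower and 2 to 5 higher. Eomes, at 0.13 with all libraries, ran from -0.13 to 0.66 with 1 library left out: it was -0.0857 without UTX TCD replicate 2, -0.13 without WT replicate 1 and -0.0391 without WT replicate 2. Of 77 other genes followed, 69 were called, and 22 of these lost the call in some alternative. The wider adjustment counts more tests and the left-out fits hold fewer libraries; other causes were not tested. The median log2 fold change of all genes was -0.15, and -0.23 with gap-centred and -0.07 with upper-quartile scaling. The selection of the table is shared by every alternative, and Ifng rests on 27 to 52 counts in UTX TCD libraries.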
